A study of Mus musculus with 2 samples.

Results

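Enzymes that add or remove acetyl and methyl groups on histones were compared between the suprachiasmatic nucleus (SCN) of mice on a short and on a normal light cycle. The SCN is the hypothalamic nucleus that keeps circadian time in mammals. Members were the rows of the deposited table whose name belongs to the Hdac, Sirt1 to Sirt7, Kat, Kdm, Setd, Suv, Ehmt, Ezh, Mll or Prmt series, 68 rows with 66 symbols of 24229 rows in all. Of these, 67 had a mean normalised count of at least 50 and are called measured. The exception was Kdm4d, with 30 counts in each library. Hdac4 and Setd1b each had a pair of rows, which cover adjoining stretches under the same symbol.

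Both groups were wild type C57BL/6 mice at postnatal day 68, with no transgene or drug named in the labels. The ST group was held on a short T-cycle and the NT group on a normal one, a T-cycle being a light-dark schedule of chosen period, whose length the labels do not state. The 16 mice spent 7 days in constant darkness and then entered groups of 8. A span of 4 weeks before recording is also listed for both groups. Brains were collected at circadian time 4 h, after 5 further days in darkness. The SCN was cut by hand from 250 µm slices, so neighbouring tissue can be present, and how many mice went into a library is not stated. Each group is 1 RNA sequencing library, labelled as polyadenylated RNA, with no word on whether nuclear or cytoplasmic RNA was kept, so there are no replicates and no test. Every interval given is a 95% counting interval of the ST to NT ratio, unless NT over ST is named, and each difference is between these libraries.

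As background, lysine acetyltransferases acetylate histone tails and open chromatin, and the deacetylases take the acetyl group off again, the Hdac enzymes with zinc and the sirtuins with NAD. Methyltransferases with a SET domain write marks whose meaning depends on the lysine, H3K4 and H3K36 at active genes and H3K9 and H3K27 at silenced ones, while the Prmt enzymes methylate arginine and the Kdm enzymes erase lysine methylation. Several of them act on the clock itself. The NCoR complex with HDAC3 is recruited by REV-ERB proteins, SIRT1 binds CLOCK, and MLL1 and KDM5A have been tied to rhythmic transcription at CLOCK targets.

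The ST library held 19476800 counts and the NT library 24790727, of which the enzymes took 0.459% and 0.446%. SCN neuron markers such as Vip, Avp and Six6 were present, with summed RPKM (reads per kilobase of gene, scaled to the library total) of 1018 in ST and 948 in NT over 9 genes. That sum is mostly Avp, at 656 and 563 RPKM. The median log2 ratio of the 9 genes was -0.09, with 6 lower in ST, among them Vip at -0.24 and Six6 at -0.09, and 3 higher, among them Avp at 0.21; 3 intervals lay below 1 and 2 above. Markers of several other cell types were lower in ST, in 12 of 12 oligodendrocyte genes (median log2 ratio -0.30), 9 of 9 microglial genes (-0.27), 8 of 8 endothelial genes (-0.32) and 6 of 6 measured meningeal genes (-0.96). The median was -0.02 for 9 measured neuronal genes and -0.08 for 8 astrocyte genes. Summed RPKM was 1060 in ST and 1290 in NT for the oligodendrocyte list, 110 and 128 for microglia, 61.2 and 76.5 for endothelium and 13.1 and 24.0 for meninges, and 0 of these marker genes were at 0 counts in a library. In such whole tissue, fewer cells of a type and less RNA per cell cannot be told apart. The part of these shifts in the values below was not tested.

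As a set, the enzymes were close to equal in the 2 libraries. A total of 55 of the 67 measured rows (82.1%) lay within 1.1-fold, against 73.2% of 14343 measured genes. At least 1.2-fold higher in ST were 2 rows, Ezh2 and Mll2, against 3.35% of all measured genes, and at least 1.2-fold lower was 1 row, Suv39h2, against 6.11%. Both directions together held 4.48% of the enzymes and 9.46% of all genes. No enzyme reached 2-fold, which 0.0209% of genes did on the higher and 0.23% on the lower side. An interval wholly above 1 was found for 8 rows, Mll1, Mll2, Mll3, the larger Setd1b row, Prmt2, Prmt5, Prmt10 and Hdac6, or 11.9% against 7.79% of all genes. An interval wholly below 1 was found for 2 rows, Sirt2 and Prmt6, or 2.99% against 10.2%. These shares depend on depth, and the median normalised count was 1146 for the enzymes and 621 for all measured genes. Of the 7890 measured genes at or above the lower quartile of the enzymes' counts, 822 had an interval above 1 and 956 below.

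The median log2 ratio of the enzymes was 0.02 with quartiles of -0.03 and 0.06, beside a median of -0.00 and quartiles of -0.08 and 0.07 over all measured genes. The standard deviation over rows was 0.10 for the enzymes and 0.18 for all genes. Among the 7890 genes whose counts reached the lower quartile of the enzymes' counts it was 0.11, so the narrow spread was close to that of other genes of similar depth.

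**Figure D1:**
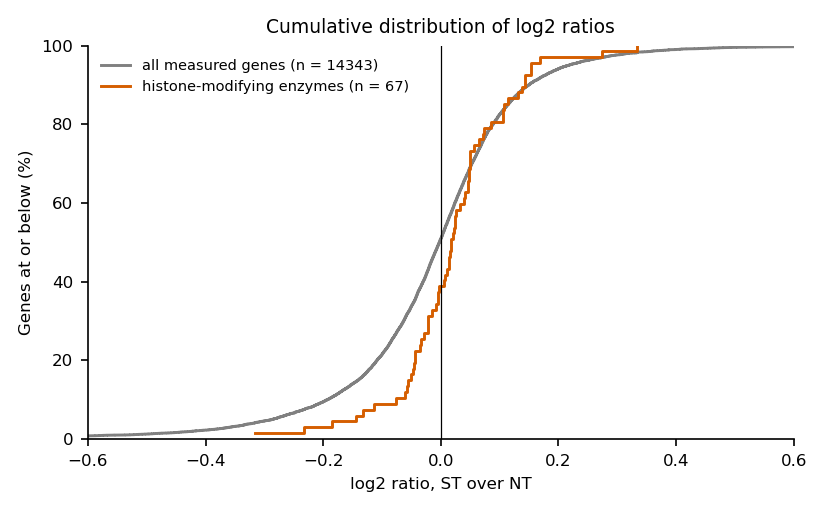
Cumulative percentage of genes (vertical axis) at or below each log2 ratio of ST over NT (horizontal axis, shown from -0.6 to 0.6), for the 67 measured histone-modifying enzymes and all 14343 measured genes. The curve of the enzymes is steeper around 0, and 55 of them lie within 1.1-fold.

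Levels per length spanned a wide range and kept their order. Hdac11, the only class IV deacetylase, was the most abundant enzyme, at 97.0 RPKM in ST and 95.2 in NT, at percentile 95.7 of measured genes in NT. Next came the arginine methyltransferase Prmt2 (63.5 and 58.4 RPKM), the NAD-dependent tubulin and histone deacetylase Sirt2 (38.3 and 41.6), the H3K9 methyltransferase Ehmt2, also called G9a (37.8 and 37.0), the main arginine methyltransferase Prmt1 (33.9 and 32.5) and the acetyltransferase Kat5, also called TIP60 (28.2 and 28.4). The same 12 enzymes held the first 12 places in both libraries, and no rank among the 67 rows differed by more than 5. At the low end stood Suv39h2 (0.873 and 1.08 RPKM), Ezh2 (1.81 and 1.42) and Hdac8 (1.83 and 1.87). The median enzyme was at 8.89 RPKM in ST and 8.53 in NT, beside 9.26 and 9.16 over all measured genes.

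These pairs of paralogues with the same chemistry differed far more from each other than either did between libraries. Ezh1 exceeded Ezh2, the other H3K27 methyltransferase of Polycomb complexes, 5.62 times in ST and 6.85 times in NT by RPKM. Suv39h1 exceeded Suv39h2, the other heterochromatin H3K9 methyltransferase, 11.6 and 8.95 times. Ehmt2 exceeded its partner Ehmt1 6.58 and 6.40 times, and Kdm1a, the demethylase LSD1, exceeded Kdm1b 6.92 and 6.43 times. Hdac2 exceeded Hdac1 4.04 and 4.15 times, and Kat2a, also called GCN5, exceeded Kat2b, also called PCAF, 3.49 and 3.43 times. Smaller ratios were found for Kdm5c over Kdm5d, 2.04 and 1.81, and for Suv420h2 over Suv420h1, 1.59 and 1.56. The pairs were chosen and do not stand for all paralogues. Mll2 and Mll3, which are not among them, lay closer, at 7.26 and 6.29 RPKM in ST and 5.95 and 5.69 in NT.

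**Figure D2:**
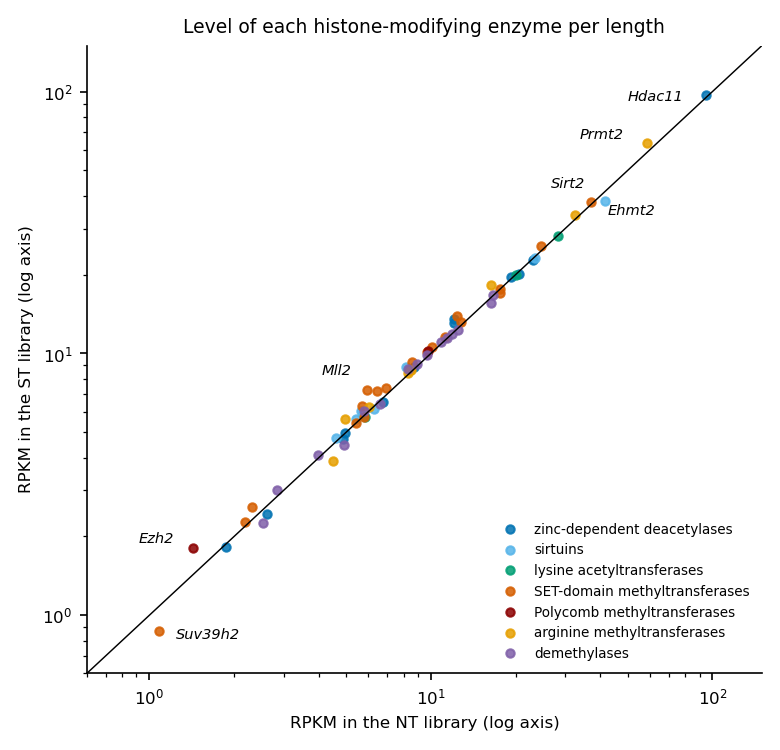
RPKM in the ST library (vertical log axis) against RPKM in the NT library (horizontal log axis) for the 67 measured rows, coloured by enzyme class, with the line of equality. Points follow the line from Suv39h2 near 1 to Hdac11 near 97.0 RPKM, with Mll2 and Ezh2 above it and Suv39h2 below it.

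Above 200 normalised counts, the largest difference was in an H3K4 methyltransferase. Mll2, the enhancer-type H3K4 methyltransferase that current annotation calls Kmt2d, had 2257 counts in ST and 2356 in NT, or 2536 and 2097 after normalisation. The ST library was thus higher, 1.21-fold (1.14 to 1.28). Mll1 (Kmt2a), the founding trithorax homologue, had normalised counts of 5038 and 4527, 1.11-fold higher in ST (1.07 to 1.16). Mll3 (Kmt2c), the paralogue of Mll2, had 2328 and 2127, 1.09-fold (1.03 to 1.16). The deposited counts of these 3 rows are whole numbers.

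The 2 genes of the SET1 branch, which makes most trimethylated H3K4, lay on the same side. The larger row of Setd1b had normalised counts of 741 and 667 (log2 ratio 0.15, fold interval 1.0001 to 1.24) and the smaller row 190 and 172 (0.14, 0.894 to 1.37). Summed, they gave 829 counts in ST and 942 in NT, 1.11-fold higher (1.01 to 1.22). Setd1a was at 0.04 (0.960 to 1.10004), with reads that may come from Hsd3b7, whose annotated exons overlap its own. All 6 rows of Mll1, Mll2, Mll3, Setd1a and Setd1b were higher in ST, with a median of 0.15, a grouping made after their values were known. With Mll5 and Setd7, the 8 MLL and SET1 related rows had 6 higher and 2 lower, with a median of 0.14. Over all 14343 measured genes, 7048 were higher in ST. Wbp7 (Kmt2b), an MLL gene that the name rule leaves out and which was added after its value was seen, was at 0.05 (0.980 to 1.096). Mll5 (Kmt2e), which has a SET domain but little or no methyltransferase activity, was at -0.06 (0.911 to 1.01), and the monomethyltransferase Setd7 at -0.00 (0.946 to 1.05).

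RNA length moved with this result. The RNA lengths implied by counts and RPKM were 15959 bases for Mll2, 16633 for Mll1 and 16925 for Mll3, the longest of the enzymes. The median log2 ratio of the 127 measured genes of at least 15000 bases was 0.06, whereas it lay between -0.02 and 0.03 in every shorter range. Among the 589 measured genes of at least 10000 bases, whose median was 0.02, 8 (1.36%) were as high as Mll2, 39 (6.62%) as high as Mll1 and 61 (10.4%) as high as Mll3. The other 5 enzymes of at least 10000 bases had a median of 0.05, against 0.01 for the 462 measured genes of 10000 to 15000 bases. They were Kdm2b (10706 bases) at 0.07, Setd2 (10410) at 0.06, Kdm5a (14141) at 0.05, Setd5 (12458) at 0.02 and Suv420h1 (13694) at -0.00. The part of length in the Mll values was not tested.

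**Figure D3:**
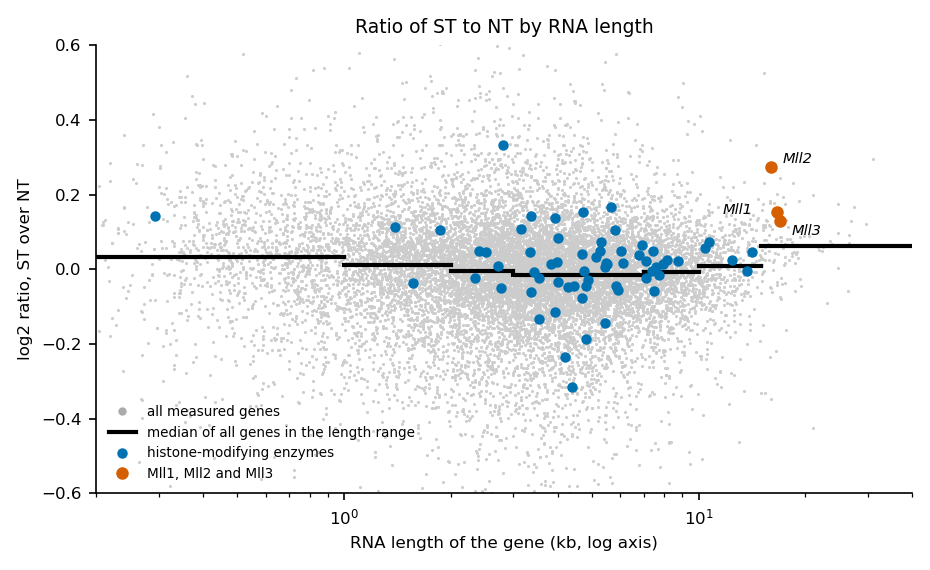
Log2 ratio of ST over NT (vertical axis, shown from -0.6 to 0.6) against RNA length (horizontal log axis, kb) for all measured genes in grey and the histone-modifying enzymes in colour, with black bars at the median of all genes in each length range. Mll1, Mll2 and Mll3 lie at the far right, above the median of 0.06 of genes of at least 15000 bases.

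The promoters of these 3 Mll genes are shown because the series concerns DNA methylation, which acts at CG dinucleotides. They are the 250 bases before the gene start in RefSeq (GRCm38.p6, a newer build than the mm9 of the deposited table), 5′ to 3′, with CG in capitals.
Mll1 (chr9:44881290-44881539, minus strand): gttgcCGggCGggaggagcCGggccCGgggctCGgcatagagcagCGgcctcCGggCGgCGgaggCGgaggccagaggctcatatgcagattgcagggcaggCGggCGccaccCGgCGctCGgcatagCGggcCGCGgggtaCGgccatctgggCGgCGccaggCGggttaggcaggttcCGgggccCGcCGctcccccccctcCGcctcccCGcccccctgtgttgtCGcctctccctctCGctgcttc
Mll2 (chr15:98871206-98871455, minus strand): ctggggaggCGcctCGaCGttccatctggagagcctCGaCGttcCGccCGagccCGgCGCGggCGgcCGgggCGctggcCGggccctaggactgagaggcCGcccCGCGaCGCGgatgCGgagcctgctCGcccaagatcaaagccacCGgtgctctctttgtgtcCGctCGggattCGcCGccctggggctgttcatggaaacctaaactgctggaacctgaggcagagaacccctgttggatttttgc
Mll3 (chr5:25498784-25499033, minus strand): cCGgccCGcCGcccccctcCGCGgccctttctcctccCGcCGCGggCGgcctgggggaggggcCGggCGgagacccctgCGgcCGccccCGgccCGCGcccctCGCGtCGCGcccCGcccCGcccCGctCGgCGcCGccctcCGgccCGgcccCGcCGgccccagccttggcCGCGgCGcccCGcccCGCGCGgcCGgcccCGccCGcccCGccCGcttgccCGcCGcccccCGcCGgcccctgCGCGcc
CG occurs 29, 26 and 48 times in these windows, and the median over 32851 RefSeq promoter windows of the same length was 6. Over the 77 windows of the 56 enzyme symbols that matched, the median was 17, with a range from 0 to 48. Methylation was not measured in the data used here. In mm9, Mll1 (ENSMUSG00000002028) lies on chromosome 9 from 44611438 to 44689379, Mll2 (ENSMUSG00000048154) on chromosome 15 from 98664934 to 98701614 and Mll3 (ENSMUSG00000038056) on chromosome 5 from 24777612 to 25004601, all on the minus strand.

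Methyltransferases of the other lysines differed little, except where counts were low. Suv39h2 had 75 counts in ST and 118 in NT, normalised to 84.3 and 105, and was 1.25-fold lower in ST with an interval of the ST to NT ratio (0.592 to 1.08) that held 1. It overlaps exons of Dclre1c on the opposite strand and shares reads. The other H3K9 enzymes were at 0.05 (Suv39h1, 0.952 to 1.12), 0.02 (Ehmt2, 0.971 to 1.06) and -0.02 (Ehmt1, 0.896 to 1.08), so no shift of this mark's writers was detectable at this depth. Ezh2 had 99 counts in each library, normalised to 111 and 88.1, or 1.26-fold higher in ST (0.946 to 1.68), and this interval also held 1. Ezh1, the form typical of non-dividing cells, was at 0.05 (0.966 to 1.11).

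Setd2, which trimethylates H3K36, was at 0.06 (0.982 to 1.101) and the related Setd5 at 0.02 (0.970 to 1.07). Of the H4K20 enzymes, the monomethyltransferase Setd8 was at 0.08 (0.948 to 1.19), and the enzymes of the higher methylation states, Suv420h1 and Suv420h2, were at -0.00 (0.931 to 1.07) and 0.02 (0.915 to 1.12). Setd3, an actin histidine methyltransferase, was at 0.05 (0.986 to 1.09), Setd4 at 0.04 (0.852 to 1.24) and Setd6, which acts on the NF-kappaB subunit RelA, at 0.11 (0.928 to 1.25). Over all 20 SET-domain rows outside the Ezh genes, 15 were higher and 5 lower in ST, with a median of 0.04 and 4 intervals above 1. Of the 14343 measured genes, 7048 were higher in ST and 7.79% had an interval above 1.

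**Figure D4:**
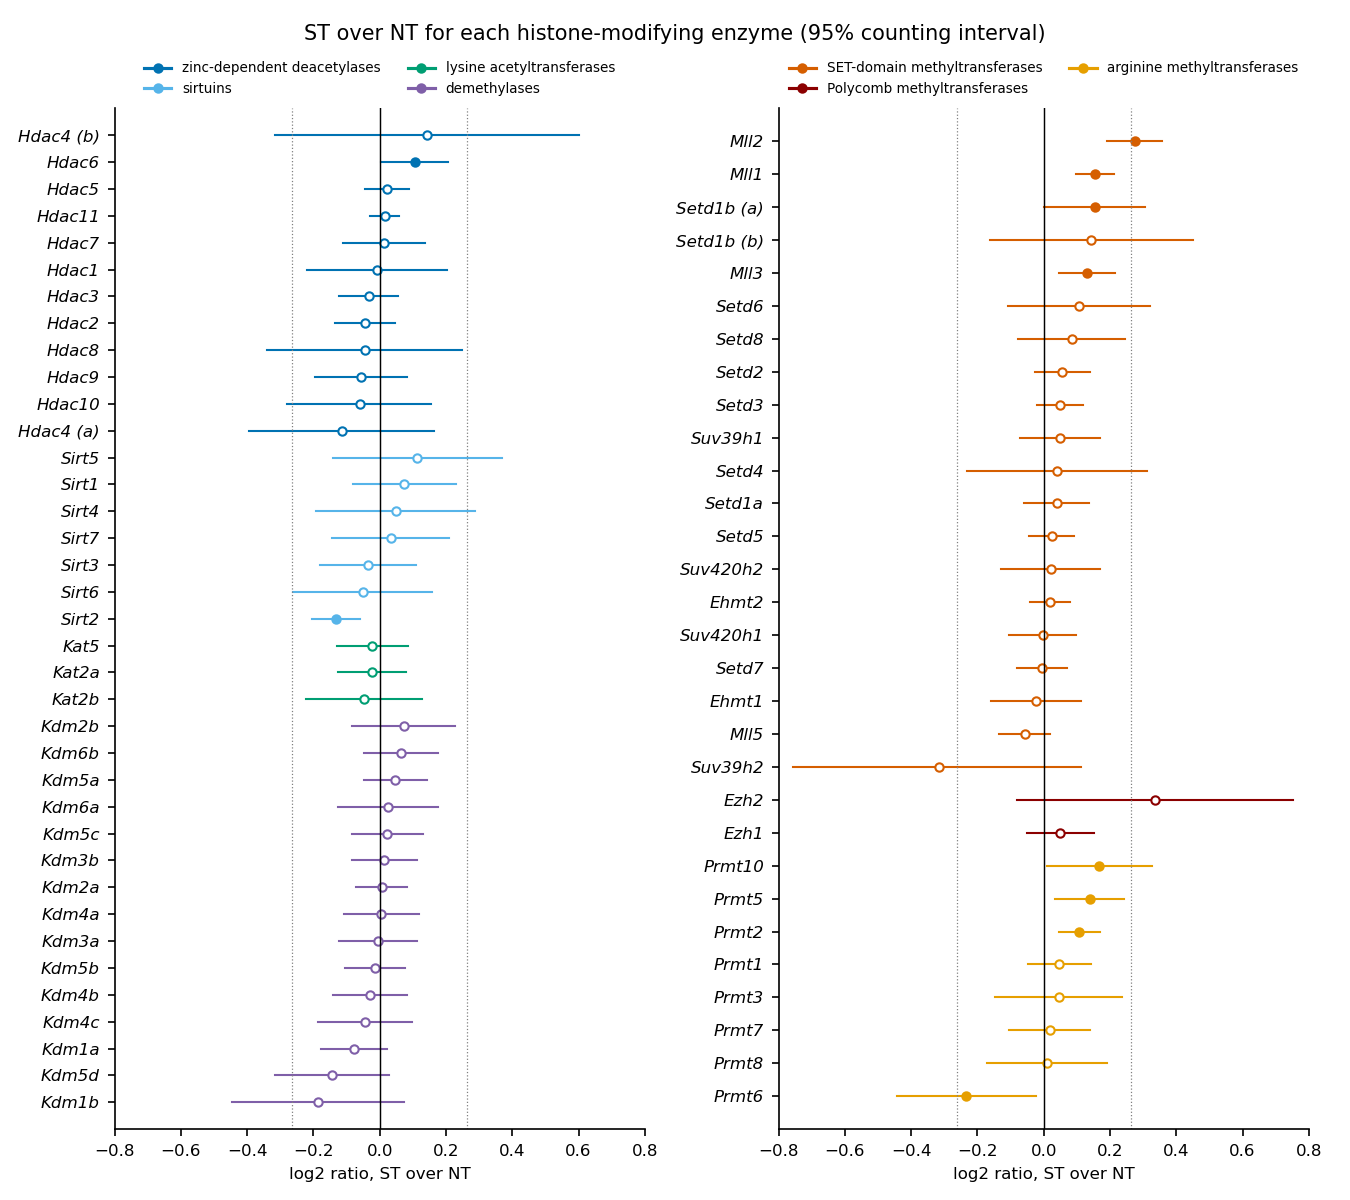
Log2 ratio of ST over NT (horizontal axis) for each of the 67 measured rows, by enzyme class, with lines for the 95% counting interval, filled points where that interval is clear of 0 on this scale and dotted lines at 1.2-fold; (a) and (b) are the larger and the smaller row of Hdac4 and Setd1b. The filled points are 8 on the right, among them Mll1, Mll2 and Mll3, and 2 on the left, Sirt2 and Prmt6.

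Arginine methyltransferases held both higher and lower members. Prmt5, which makes symmetric dimethylarginine, had normalised counts of 1569 in ST and 1426 in NT, 1.1006-fold higher in ST (1.02 to 1.18). Prmt2, a weakly active coactivator, had 4388 and 4072, 1.08-fold (1.03 to 1.12). Prmt10, which current annotation calls Prmt9, had 693 and 617, 1.12-fold (1.01 to 1.25). The deposited counts of Prmt2 and Prmt10 are fractional, and those of Prmt5 are whole.

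Prmt6, which makes asymmetric dimethylarginine on histone H3 and opposes H3K4 methylation, went the other way. Its normalised counts were 355 in ST and 417 in NT, so that ST was lower by a factor of 1.18. The interval was 1.02 to 1.36 for NT over ST, or 0.735 to 0.983 for ST over NT. Prmt1 was at 0.05 (0.967 to 1.103), Prmt3 at 0.05 (0.904 to 1.18), Prmt7 at 0.02 (0.931 to 1.1006) and the neuronal, membrane-bound Prmt8 at 0.01 (0.889 to 1.14). In all, 7 of the 8 were higher in ST, with a median of 0.05 and 3 intervals above and 1 below 1. Of the 14343 measured genes, 7048 were higher in ST, with 7.79% of intervals above and 10.2% below 1.

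Zinc-dependent deacetylases were nearly equal. Hdac11 had normalised counts of 8145 in ST and 8060 in NT (log2 ratio 0.02, fold interval 0.980 to 1.04). The class I enzymes, catalytic cores of the Sin3, NuRD, CoREST and NCoR complexes apart from Hdac8, were at -0.01 for Hdac1 (0.859 to 1.15), -0.04 for Hdac2 (0.910 to 1.03), -0.03 for Hdac3 (0.918 to 1.04) and -0.05 for Hdac8 (0.790 to 1.19). All 4 were thus slightly lower, and none beyond counting error.

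Class IIa enzymes, signal-responsive partners of MEF2 factors, were likewise flat. Hdac5 was at 0.02 (0.970 to 1.06), Hdac7 at 0.01 (0.926 to 1.1004), Hdac9 at -0.06 (0.874 to 1.06) and the larger Hdac4 row at -0.11 (0.761 to 1.12). The smaller Hdac4 row, 293 bases long, was at 0.14 (0.803 to 1.52), and the summed rows gave 263 and 342 counts and a ratio of 0.971 (0.823 to 1.14). Hdac6, a cytoplasmic tubulin deacetylase, had normalised counts of 1659 and 1542, 1.08-fold higher in ST (1.003 to 1.15). It was the only interval of the 12 rows clear of 1, beside 7.79% of all measured genes above 1 and 10.2% below. Hdac10, a polyamine deacetylase, was at -0.06 (0.825 to 1.11).

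Among sirtuins, the most abundant was the only one with an interval clear of 1. Over all measured genes, 7.79% of intervals lay above 1 and 10.2% below. Sirt2 had 2643 counts in ST and 3656 in NT, normalised to 2969 and 3254. It was lower in ST, by a factor of 1.096 (1.04 to 1.15 for NT over ST, or 0.868 to 0.959 for ST over NT). It shares reads, with 42 exonic bases overlapping Nfkbib on the opposite strand. Sirt2 is best known in brain as a protein of oligodendrocytes and myelin, and the oligodendrocyte genes given above lay lower in the same library in 12 of 12 cases, with Mbp at -0.33 and Cnp at -0.20. Their part in the Sirt2 value was not tested.

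Sirt1, the deacetylase that acts on clock proteins, had normalised counts of 699.9 and 664.9 (log2 ratio 0.07, fold interval 0.945 to 1.17). The chromatin-bound Sirt6 and the nucleolar Sirt7 were at -0.05 (0.834 to 1.12) and 0.03 (0.905 to 1.16). The mitochondrial members were at -0.04 for Sirt3 (0.883 to 1.08), 0.05 for Sirt4 (0.875 to 1.22) and 0.11 for Sirt5 (0.908 to 1.29). All 6 intervals held 1.

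Acetyltransferases named Kat gave values of -0.02 for Kat2a (0.917 to 1.06), -0.05 for Kat2b (0.857 to 1.09) and -0.02 for Kat5 (0.915 to 1.06). Outside the name rule, a list of 20 acetyltransferases and their cofactors, 17 of them in the table and all measured, had a median of 0.02, with 12 higher, 3 intervals above 1, 1 below and none at 1.2-fold. Among all 14343 measured genes, 7048 were higher, with 7.79% of intervals above 1 and 10.2% below. Crebbp, the CBP coactivator that binds phosphorylated CREB, stood nearest to that size, with counts of 1227 for ST against 1296 for NT (ratio 1.195, 1.104 to 1.29). Its paralogue Ep300 was at 0.08 (1.002 to 1.12), and Trrap, the scaffold of the Kat2a and Kat5 complexes, at 0.16 (1.07 to 1.17) with an RNA of 15110 bases. Myst3 (Kat6a) was at -0.12 (0.858 to 0.981).

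No demethylase had an interval clear of 1, beside 7.79% of all measured genes above 1 and 10.2% below. Over 15 measured rows the median was 0.01, from -0.19 for Kdm1b (normalised counts 237 and 269.7, fold interval 0.734 to 1.05) to 0.07 for Kdm2b (707 and 672, 0.944 to 1.17). Kdm1a, the amine oxidase of CoREST that removes H3K4 methylation, was at -0.08 (0.885 to 1.02). Of the KDM5 enzymes, which remove trimethylated H3K4, Kdm5a was at 0.05 (0.968 to 1.103), Kdm5b at -0.01 (0.930 to 1.05) and the X-linked Kdm5c at 0.02 (0.943 to 1.095). Kdm5d, the Y-linked copy of Kdm5c, had normalised counts of 535 in ST and 591 in NT and was at -0.14 (0.803 to 1.02).

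The H3K27 demethylases Kdm6a and Kdm6b were at 0.03 (0.916 to 1.13) and 0.06 (0.967 to 1.13). Kdm2a, an H3K36 demethylase with a CpG-binding domain, was at 0.01 (0.952 to 1.06). The H3K9 demethylases Kdm3a, Kdm3b, Kdm4a, Kdm4b and Kdm4c lay between -0.04 and 0.01. Kdm4d, below the count limit, gave normalised counts of 33.7 and 26.7 and an interval of 0.735 to 2.17. A list of 15 further demethylases and related proteins, 13 of them measured, was at a median of -0.05. Of these, Hr, the thyroid hormone-responsive corepressor Hairless, had counts of 872 and 749, a ratio of 1.47 (1.33 to 1.62), and Mina was at -0.33 (0.657 to 0.956) with shared reads. Uty, the Y-linked paralogue of Kdm6a, was at -0.20 (0.766 to 0.989).

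Lists of methyltransferases outside the rule and of partner proteins were also near 0. The 22 measured methyltransferases had a median of 0.03, with Setmar at 0.28 (0.867 to 1.69) and the muscle enzyme Smyd1 at -0.57 (0.502 to 0.890, 77 counts against 145) past 1.2-fold. The 13 subunits and partners of MLL complexes had a median of 0.02, 0 past 1.2-fold and 1 interval above 1, that of Bptf at 0.07. An interval above 1 was found for 7.79% of all measured genes. Wdr5, the shared core subunit, was at 0.00 (0.911 to 1.101). Polycomb partners had a median of -0.01 over 26 genes, with Cbx2 at 0.39 (0.991 to 1.74). Deacetylase corepressors and their MEF2 partners had a median of 0.01 over 27 genes, with Ncor1 at 0.01 (0.962 to 1.05) and Mef2c at -0.27 (0.646 to 1.06).

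Readers of acetyl and methyl lysine had a median of 0.03 over 23 genes, with only Cdyl2, at -0.35 (0.585 to 1.05), past 1.2-fold. Genes that supply NAD, acetyl-CoA and methyl groups had a median of -0.01 over 16 genes, with 5 intervals below 1 and 1 above, beside 10.2% and 7.79% of all measured genes. Nadsyn1, an NAD synthetase, was at -0.37 (0.618 to 0.962) and Nmnat1, a nuclear NAD-producing enzyme, at 0.33 (0.952 to 1.67), while Nampt, the rhythmic enzyme that limits NAD salvage, was at -0.04 (0.895 to 1.06). A list of 23 chromatin enzymes and partners studied in the circadian clock, 16 of them enzymes already described, had a median of 0.01, with 5 intervals above 1, those of Mll1, Mll3, Prmt5, Crebbp and Ep300, and 0 below. Of these, Mll1, Mll3 and Prmt5 were already counted among the enzymes. The shares over all measured genes were 7.79% above 1 and 10.2% below.

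Clock proteins bind the E-box CACGTG, and CREB, which light activates in the SCN, binds the cAMP response element TGACGTCA, so both palindromes were searched in the promoter windows. The E-box occurred in 8 of the 77 enzyme windows (10.4%), against 6.02% of all windows, and the cAMP response element in 2 (2.60%), against 1.55%. Both windows of Ehmt2 are among the 8. Each motif contains CG, whose median number was 17 in the enzyme windows and 6 in all windows. The part of this difference in the shares was not tested. Windows around the matches are shown for 4 enzymes with an E-box and for the 2 with a cAMP response element, with the motif in capitals, 5′ to 3′ (RefSeq, GRCm38.p6).
Sirt1 (chr10:63339128-63339167, minus strand): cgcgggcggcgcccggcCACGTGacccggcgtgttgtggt
Kat5 (chr19:5610258-5610297, minus strand): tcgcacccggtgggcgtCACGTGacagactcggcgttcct
Prmt1 (chr7:44986579-44986618, minus strand): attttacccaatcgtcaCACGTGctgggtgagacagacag
Kdm6a (chrX:18162531-18162570, plus strand): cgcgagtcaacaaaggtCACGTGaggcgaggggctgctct
Suv39h2 (chr2:3475047-3475088, minus strand): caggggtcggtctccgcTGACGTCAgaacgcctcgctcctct
Prmt10 (chr8:77549336-77549377, plus strand): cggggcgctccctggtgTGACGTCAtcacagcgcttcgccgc
The log2 ratios of the 4 genes with an E-box shown here were 0.07, -0.02, 0.05 and 0.03, and those of Suv39h2 and Prmt10 were -0.32 and 0.17. The remaining genes with an E-box were Ehmt2 at 0.02, Prmt3 at 0.05 and Kdm4c at -0.04. A match describes letters in a window, and neither motif was found in the Mll1, Mll2 or Mll3 windows.

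In the authors' deposited table all 68 rows of the enzymes have an adjusted p of 1, whereas 0.293% of measured genes are under 0.05. These p-values come from 1 library per group and hold no replicate error. The log2 fold change in the authors' deposited table was 0.27 for Mll2, 0.15 for Mll1, 0.13 for Mll3, -0.13 for Sirt2 and -0.23 for Prmt6.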

How the data were processed

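Per the file headers, the authors deposited estimated counts per gene (RC), RPKM values, and a comparison of ST over NT with a log2 fold change and an adjusted p-value. CASAVA 1.8.2, TopHat 1.2, DESeq and mm9 are named in the submitters' processing notes without role; the counter and its use of strand are not stated there. Another 3 columns of means were not used. At a tolerance of 1e-06, 42.4% of the deposited ST counts and 43.1% of the NT counts are fractional. So are 26 of the 68 enzyme rows, which are said to share reads. The term rests on the fraction alone, and Prmt10 carries it without an annotated exonic overlap.

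Counts were rounded and divided by size factors from the median of ratios, 0.89 and 1.12. The log2 ratio used a pseudocount of 0.5, and its interval rescales the exact (Clopper-Pearson) bounds of the fraction of a gene's reads found in ST. Only counting error is covered, because each group has 1 library. PCR copies cannot be told from molecules here, so the intervals may be too narrow. Python 3.11.15, scipy 1.17.1 and edgeR 4.0.16 (TMM factors only) were used, and the calculation was checked on simulated counts. Positions are the deposited ones, and 99.6% of the 23161 identifiers found in GENCODE vM1 of the same build overlap that gene. Groups come from the sample titles.

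With 1 library per group no test could be run, so sizes of 1.2-fold and counting intervals stand in its place. All members are given, with both libraries' values for the 5 highest and 5 lowest, the most abundant and those with an interval clear of 1; of other lists, up to 4 genes past 1.2-fold, plus a few named for their role after values were seen. The members and lists were chosen with earlier results of these data known, and enzyme classes were assigned from textbook knowledge. Alternatives were total-count and TMM scaling, filters of 10 and 200, a pseudocount of 5, whole counts only, other sizes, means, and, added after the data were seen, summed rows.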

Additional observations from a re-analysis of the deposited data

How the results depend on the processing

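No paired analysis was possible because the NT and ST groups hold only 1 library each, and no library could be left out. Numbers of enzymes at least 1.2-fold higher and lower, 2 and 1, changed by construction with size rules of 1.1-fold (8 and 4) and 1.5-fold (0 and 0). With a filter of 200 counts they were 1 and 0, since Ezh2 and Suv39h2 fall below it. With whole counts only, 41 rows remained, of which 0 were 1.2-fold lower and 1 had an interval below 1, since Suv39h2 and Sirt2 share reads. The other 86 counts and medians, and 507 enzyme values or numbers of measured enzymes, stayed within 1.5 times or within counting error. The filters, whole counts only and summed rows leave the ratio of any other kept row unchanged. Those enzyme values are therefore equal by construction and say nothing of stability. The enzymes' log2 ratios moved by 0.012 under total-count scaling and by 0.00013 under TMM. The counting intervals do not use the pseudocount, so with a pseudocount of 5 the numbers of intervals clear of 1 are 8 above and 2 below by construction, as with 0.5. Depth leaves intervals of 0.946 to 1.68 around the ratio of Ezh2 and 1.14 to 1.28 around that of Mll2.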
